A study of Mus musculus with 4 samples.

Results

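The genes of the tripartite motif (TRIM) family were described in GR-depleted mouse mammary cells. They were taken as all non-control probes of the array whose gene name is Trim followed by a number, which gave 97 probes for 52 genes, of 41174 non-control probes and 28146 gene names on the array. The cells were 2 stable lines made from EPH-4, a non-malignant mouse mammary epithelial cell line. EV-50 carried an empty vector, and shGR-19 carried a vector for a short hairpin RNA directed against the glucocorticoid receptor (GR, gene Nr3c1). Both lines were selected and grown in 2 µg/ml puromycin without added glucocorticoid, and each is 1 clone, so that a difference between them cannot be told apart from a difference between clones. RNA of each line was labelled with Cy3 and hybridized to 2 one-colour Agilent Whole Mouse Genome arrays, labelled replicates 1 and 2. The duplicates are not said to come from separate RNA preparations, so that the p-values measure only the spread between these samples, which may be technical.

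Most TRIM proteins carry a RING domain, B-boxes and a coiled coil, and many act as E3 ubiquitin ligases, which attach ubiquitin to other proteins. The domain at the C-terminal end divides the family into subfamilies with different roles. Many members are induced by interferon and act against viruses or in their recognition, members of the TIF1 subfamily work on chromatin as transcriptional corepressors, and others bind microtubules, muscle filaments or membranes. GR is the nuclear receptor through which glucocorticoids control transcription.

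Of the 97 TRIM probes, 57 were well above background on all 4 arrays and 18 on none. A probe was tested where both arrays of EV-50, or both of shGR-19, were well above background, which kept 70 TRIM probes (72.2%, against 59.4% of all non-control probes) for 41 of the 52 genes. The 11 genes without a tested probe were Trim5, Trim15, Trim30, Trim31, Trim50, Trim52, Trim61, Trim63, Trim65, Trim66 and Trim79. Values of both kinds were compared, namely the intensities of the scanner files, taken on the log2 scale with each array's 75th percentile at 0, and the deposited value table, which holds log2 values centred on the median of each probe. A gene with several tested probes was represented by the brightest one.

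The lines differed in another way in each source. On the scanner arrays labelled replicate 1, EV-50 and shGR-19 hardly differed over the 57 TRIM probes (SD of the log2 differences 0.12), and on the arrays labelled replicate 2 the SD was 0.34. Both arrays labelled replicate 1 stood apart from those labelled replicate 2, with SDs of 0.61 between the EV-50 arrays and 0.57 between the shGR-19 arrays, and 7 TRIM probes differed by more than 2-fold in each of these pairs. Duplicate columns of the value table were closer, with an SD of 0.12 in EV-50 and of 0.17 in shGR-19. The brightest probe of the targeted gene Nr3c1 had scanner values of 1.81 and 1.92 on the EV-50 arrays and 1.46 and -0.034 on the shGR-19 arrays. The difference, shGR-19 minus EV-50 here and below, was -0.35 between the libraries labelled replicate 1, -1.95 between those labelled replicate 2, and -1.94 in the value table. The library labelled shGR-19 replicate 1 thus had nearly the Nr3c1 signal of EV-50, which goes against its label. Whether the labels of the scanner arrays of replicate 1 hold was not tested, and every scanner difference, test and count of calls below rests on them. Results are given for both sources, and for the scanner arrays also within each replicate number, where 1 array is set against 1 and no test can be made.

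Luminal epithelial markers (Krt8, Krt18, Epcam and Cdh1) were well above background on all 4 arrays. Endothelial markers (Pecam1 and Cdh5) were so on none, as were 3 of 7 macrophage markers on the array. Both fibroblast markers with a tested probe, Col1a2 and Pdgfra, were higher in shGR-19 by the value table, and the log2 of the summed fibroblast signal was 0.77 and 1.65 on the EV-50 arrays and 0.72 and 5.15 on the shGR-19 arrays. The summed basal markers (Krt5, Krt14 and Trp63) were at 5.77 and 7.30 in EV-50 and at 5.80 and 6.14 in shGR-19. The summed macrophage and lymphocyte markers moved less, from 1.33 to 1.76 and from -1.86 to -1.51 over the 4 arrays. The part of these markers in the TRIM values was not tested, and in RNA of a whole culture fewer cells of a type and less RNA per cell cannot be told apart.

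In the scanner files, limma called 0 of the 70 TRIM probes in either direction at an adjusted p below 0.01 (0% of all 24439 probes tested), and 1 TRIM probe, for Trim7, had an unadjusted p below 0.05 (0.855% of all probes). In the value table, 4 TRIM probes were called lower in shGR-19 and 2 higher, where 6.04% and 5.53% of all probes were called. These were 1 probe of Trim29, 1 of Trim25, 2 of Trim11, 1 of Trim2 and 1 of Trim27. Thus 8.57% of the TRIM probes were called, against 11.6% of all probes. With any 1 column left out, the brightest probes of Trim29, Trim25, Trim11 and Trim2 were not called (adjusted p from 0.0308 to 0.0631), and neither were they with all probes of the array kept (0.0218 to 0.0328). With more than a 2-fold difference required as well, 1 TRIM probe (Trim29) was lower and 0 were higher, against 2.39% and 1.87% of all probes. This probe passed the background filter through EV-50 alone, the line in which it was higher. The columns of the lines did not overlap for 47 of the 70 TRIM probes in the value table (71.9% of all probes) and for 12 in the scanner files (17.9% of all probes).

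Across the 41 genes, the value table had 22 lower and 19 higher in shGR-19. Their median log2 difference was -0.090, beside 0.018 over all 16757 genes tested. The median size of the difference was 0.22 for the TRIM genes and 0.24 for all genes. Without a test, 2 of the 70 TRIM probes differed by more than 2-fold in the value table (6.13% of all probes) and 1 in the scanner files (2.21%), 2 between the scanner arrays labelled replicate 1 (3.57%) and 1 between those labelled replicate 2 (5.53%). Differences stayed within 0.5 on the log2 scale for 32 TRIM genes (78%, and 77% of all genes). In the scanner files the median of the TRIM genes was 0.049, and it was 0.048 between the arrays labelled replicate 1 and 0.022 between those labelled replicate 2. Grouped by role, the median farthest from 0 in the value table was that of the interferon-inducible members (-0.48), followed by the members with NHL repeats (0.21) and the TIF1 members (-0.12). The order was another in the scanner files. There the members tied to microtubules or muscle were farthest from 0 (0.33), followed by the interferon-inducible members (-0.21). The medians of the microtubule or muscle members were 0.54 between the arrays labelled replicate 1 and 0.040 between those labelled replicate 2. Of these members, Trim9, Trim36, Trim55 and Trim67 passed the background filter through shGR-19 alone, the line in which their scanner means were higher. Trim46 and Trim54, which were well above background on all 4 arrays, had scanner differences of -0.17 and -0.11. The scanner median of this group thus rests on members selected through the line in which they were high.

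**Figure D1:**
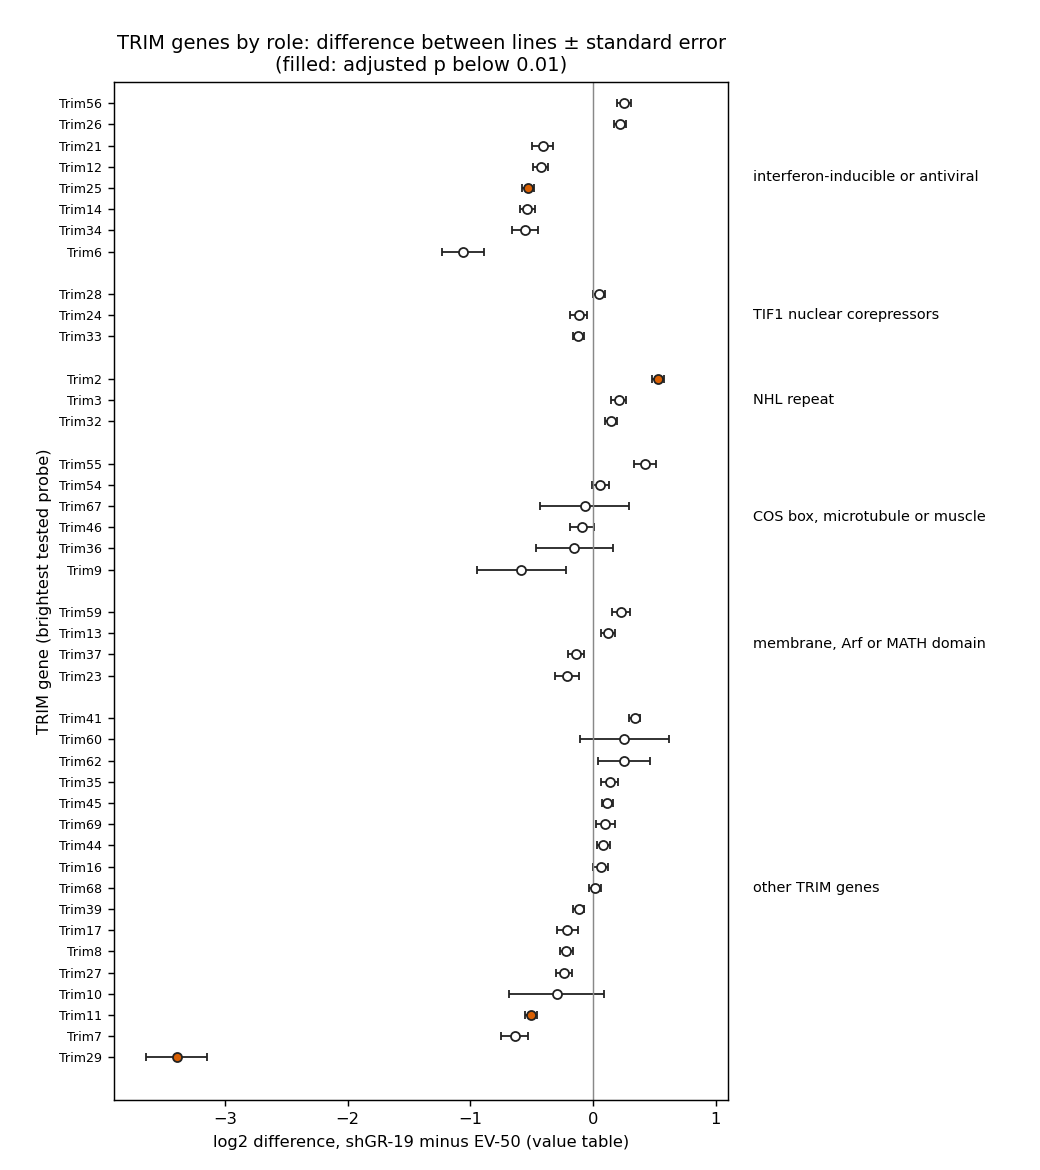
Log2 difference, shGR-19 minus EV-50, by the value table (x axis) for the 41 tested TRIM genes (y axis), grouped by role, with the standard error of the limma fit (2 columns per line). Filled points, namely Trim25, Trim2, Trim11 and Trim29, had an adjusted p below 0.01, and Trim29 lies far below all others.

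Of the 11 interferon-inducible or antiviral members on the array, 8 had a tested probe. By the value table, 6 of these were lower in shGR-19 (Trim6, Trim12, Trim14, Trim21, Trim25 and Trim34) and 2 higher (Trim26 and Trim56). Their median was -0.48, and 1 was called, where 1091 of all 16757 genes were called lower and 1024 higher. The scanner median of the 8 was -0.21, and it was -0.031 between the arrays labelled replicate 1 and -0.44 between those labelled replicate 2. None was called there. With the scanner array labelled EV-50 replicate 2 left out the median turned to 0.47.

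Trim25, the ubiquitin ligase that activates the viral RNA sensor RIG-I, was lower in shGR-19. Its brightest probe had values of 0.29 and 0.24 in the EV-50 columns of the value table and of -0.24 and -0.28 in the shGR-19 columns. The lines did not overlap, and the difference of -0.53 ± 0.051 (SE, n = 2 per line), or 1.44-fold, was called (adjusted p = 0.00883). The scanner values were 3.85 and 4.64 for EV-50 and 3.80 and 4.22 for shGR-19. Here the spread between the arrays of 1 line was larger than the difference of -0.24 between the lines (adjusted p = 1.00). The second Trim25 probe had a difference of -0.63 ± 0.070 in the value table (adjusted p = 0.0111), just beyond the threshold. Its scanner differences were -0.092 and -0.71, lower in both replicate numbers. The 2 probes read different stretches of the transcript on the forward strand of chromosome 11, chr11:88881205-88881264 for the brightest and chr11:88878330-88878389 for the second (mm9). Their first 30 of 60 bases are shown, as the gene is the one called member of the interferon group and was measured by both.
Trim25, brightest probe: cttgcatgagtgcgtgtttaagttctcgga
Trim25, second probe: attagtgttcctgttgtcttacagaaaaat

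Trim6, a ligase of the interferon pathway, had the largest decrease of the group without being called. Its brightest probe was at 0.51 and 0.39 in EV-50 and at -0.39 and -0.82 in shGR-19 by the value table. The difference was -1.06 ± 0.17 (2.09-fold, adjusted p = 0.0225), and the shGR-19 columns lay further apart than those of EV-50. On the scanner arrays this probe was at -4.05 and -2.73 in EV-50 and at -3.92 and -3.52 in shGR-19. The difference was 0.13 in replicate 1 and -0.79 in replicate 2. The second tested Trim6 probe had a smaller difference of -0.29 ± 0.046 in the value table (adjusted p = 0.0215). Its scanner differences were 0.50 in replicate 1 and -0.0085 in replicate 2, and it passed the background filter through shGR-19 alone.

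Trim14, which acts in antiviral signalling at mitochondria, was at 0.23 and 0.28 in EV-50 and at -0.32 and -0.23 in shGR-19 by the value table. The difference of -0.54 ± 0.059 missed the threshold (adjusted p = 0.0111). Trim14 was lower in shGR-19 in both scanner pairs, with differences of -0.24 and -0.45, and its scanner arrays did not overlap between the lines. Trim21, the cytosolic receptor for antibody-coated viruses, was at 0.34 and 0.15 in EV-50 and at -0.17 and -0.15 in shGR-19 (difference -0.41 ± 0.086, adjusted p = 0.0383). Its scanner values were -3.82 and -2.23 in EV-50 and -3.74 and -2.69 in shGR-19. The replicate 2 array was thus the brighter one in both lines, by more than the lines differed.

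Trim12 and Trim34 lie in a chromosome 7 cluster with Trim6 and Trim5 (probes within chr7:111376662-111452887, mm9), a region where TRIM genes have multiplied in rodents. Trim12 was at 0.29 and 0.18 in EV-50 and at -0.18 and -0.20 in shGR-19 (difference -0.43 ± 0.059, adjusted p = 0.0167), and its second probe had a difference of -0.36. The brightest probe of Trim34 was at 0.19 and 0.29 in EV-50 and at -0.43 and -0.19 in shGR-19 (difference -0.55 ± 0.11, adjusted p = 0.0312). A second Trim34 probe went the other way in the value table, at 0.35 ± 0.25 (adjusted p = 0.349), and the probes differed in sign there. The scanner differences were -0.34 and -0.052 for the brightest probe and -0.030 and -0.88 for the second, lower for both in each replicate number. Trim5 had 1 probe, which was well above background on no array.

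The 2 members with higher values were Trim26 and Trim56. Trim26, a ligase encoded near the major histocompatibility complex, had a brightest probe at -0.096 and -0.12 in EV-50 and at 0.096 and 0.13 in shGR-19 (difference 0.22 ± 0.048, adjusted p = 0.0406), and its other 2 probes were higher as well. Trim56, which acts in the sensing of cytosolic DNA, was at -0.10 and -0.13 in EV-50 and at 0.18 and 0.10 in shGR-19 (difference 0.25 ± 0.056, adjusted p = 0.0421). Scanner values of Trim56 were -0.38 and 1.07 in EV-50 and -0.47 and 1.20 in shGR-19. Neither gene passed the threshold.

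Of the role groups, the interferon-inducible members had the largest median difference between the replicate numbers of the scanner files. Over the 8 genes, the array labelled replicate 2 was above that labelled replicate 1 by a median of 1.38 in EV-50 and of 0.78 in shGR-19, where the medians over all genes were -0.043 and -0.064. Trim34 differed by 1.83 and 2.12 between the duplicates of EV-50 and shGR-19, Trim12 by 1.81 and 1.37, Trim56 by 1.45 and 1.67 and Trim21 by 1.59 and 1.05. For these 4 genes the scanner spread between duplicates was larger than the difference between the lines in either source.

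**Figure D2:**
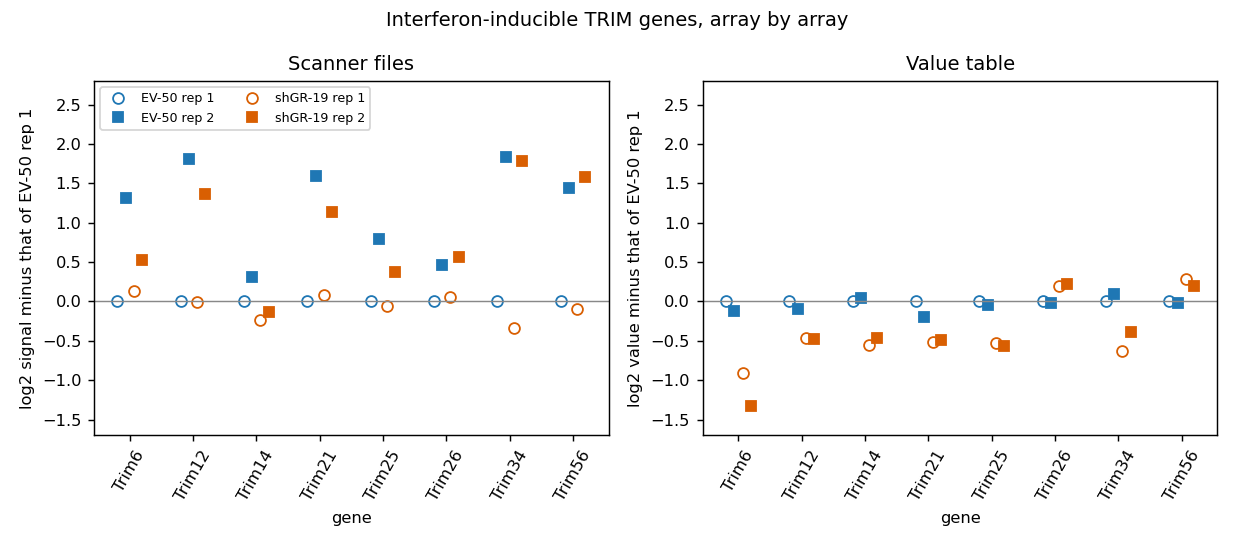
Value of each of the 8 tested interferon-inducible TRIM genes (x axis) in each sample, as the log2 difference from the sample labelled EV-50 replicate 1 (y axis), in the scanner files (left) and the value table (right). On the left the replicate 2 arrays of both lines lie above the replicate 1 arrays for most genes, while on the right the samples separate by line.

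Trim30 and Trim79, the genes that RefSeq lists as Trim30a and Trim30d, are neighbouring copies on the reverse strand of chromosome 7 (probes within chr7:111557578-111620864, mm9). Trim30a is known as an interferon-inducible brake on Toll-like receptor signalling. Their probes had differences of -3.13 and -3.79 (Trim30) and of -2.73 and -1.25 (Trim79) in the value table, but none was well above background on both arrays of a line, so that they are given as values without a call. One Trim30 probe was at 1.46 and 1.78 in EV-50 and at -1.46 and -1.55 in shGR-19. Its scanner values were -6.68 and -5.32 in EV-50 and -7.88 and -8.25 in shGR-19, and only the array labelled EV-50 replicate 2 was well above background. No fold is given, as 1 array alone measured it. One Trim79 probe was at 1.47 and 1.29 in EV-50 and at -1.29 and -1.40 in shGR-19 by the value table. Its scanner values were -6.87 and -4.78 in EV-50 and -8.01 and -8.26 in shGR-19, and again EV-50 replicate 2 alone was well above background. The other Trim79 probe was well above background on no array. The second probe of Trim30 was at 1.57 and 1.59 in EV-50 and at -2.84 and -1.57 in shGR-19 by the value table. In the scanner files, however, it was well above background on EV-50 replicate 2 (-3.63) and on shGR-19 replicate 1 (-3.99), and low on EV-50 replicate 1 (-6.81) and shGR-19 replicate 2 (-8.33). For this probe the arrays labelled replicate 1 therefore disagreed with the columns of the same labels in both lines. The first 30 of 60 bases of these probes are shown because they carried the larger differences of the pair.
Trim30, first probe: catattgcttctagcagatagaaggtatca
Trim30, second probe: atgctgcaagtgtatcaaggactcatggat
Trim79: atgtaacgtttcagcctaaatgtggctact

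With all non-control probes of the array in the fit of the value table, the Trim30 probes had adjusted p-values of 0.0143 and 0.0413, and those of Trim79 0.0118 and 0.179. In that fit 0 of the 97 TRIM probes and 0.104% of all probes were called.

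The 250 bases upstream of the TRIM genes were searched on both strands for the core of the interferon-stimulated response element, GAAANNGAAA, where N is any base. RefSeq gave a window for 39 of the 52 genes (GRCm38.p6). The core was found for 4 of them, Trim5, Trim26, Trim30a and Trim30d, and for 3.46% of all 27025 genes with such a window. A palindromic glucocorticoid response element, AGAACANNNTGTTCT, was found for 0 of the 39 and for 0.0111% of all genes. No TRIM window held both motifs. A match of letters is not a binding site, and no match says only that these letters are not in the window. The windows of the Trim30 pair, whose probes were higher in EV-50 by the value table, and that of Trim25, the called member, are shown 5′ to 3′ along the gene, with the match in capitals, which reads there as the reverse complement of the core. RefSeq has 2 windows for Trim30a, and the one shown was chosen by its number of matches. In Trim30a (chr7:104465194-104465443, reverse strand) and Trim30d (chr7:104507850-104508099, reverse strand) the match begins 36 and 41 bases before the transcription start. These 2 shown windows are identical at 227 of 245 aligned bases (92.7%). Trim25 (chr11:88999153-88999402, forward strand) has no match.
Trim30a: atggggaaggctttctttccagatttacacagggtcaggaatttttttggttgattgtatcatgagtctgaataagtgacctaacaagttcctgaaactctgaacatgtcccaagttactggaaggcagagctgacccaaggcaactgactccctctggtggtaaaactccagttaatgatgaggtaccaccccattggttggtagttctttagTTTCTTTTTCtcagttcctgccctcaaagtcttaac
Trim30d: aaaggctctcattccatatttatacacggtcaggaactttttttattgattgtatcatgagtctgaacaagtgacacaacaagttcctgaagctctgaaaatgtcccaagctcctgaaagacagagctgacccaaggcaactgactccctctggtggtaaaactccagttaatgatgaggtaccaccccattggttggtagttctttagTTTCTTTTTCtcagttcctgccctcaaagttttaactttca
Trim25: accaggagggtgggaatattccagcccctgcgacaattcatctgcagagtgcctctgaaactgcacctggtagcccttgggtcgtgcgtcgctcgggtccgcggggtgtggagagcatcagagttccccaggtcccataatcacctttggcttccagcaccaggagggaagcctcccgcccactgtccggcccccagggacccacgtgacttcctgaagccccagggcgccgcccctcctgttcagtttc

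No TIF1 member was called in either source. Trim28, the corepressor that KRAB zinc finger proteins recruit to chromatin, had scanner values of 4.92 and 4.87 in EV-50 and of 4.93 and 5.01 in shGR-19. Its difference in the value table was 0.047 ± 0.047 (adjusted p = 0.499). Trim24, a coregulator of nuclear receptors, had a difference of -0.12 ± 0.070 (adjusted p = 0.276) with its brightest probe and of 0.13 ± 0.097 with a dimmer one. Trim33, which acts in TGF-beta signalling, was at 0.059 and 0.063 in EV-50 and at -0.062 and -0.059 in shGR-19 by the value table (difference -0.12 ± 0.045, adjusted p = 0.122). Trim66 was not well above background on both arrays of either line. Of 4 chromatin partners of TIF1 proteins (Cbx1, Cbx3, Cbx5 and Setdb1), 1 was called lower, namely Cbx5, a heterochromatin protein, at -0.80 ± 0.046 (adjusted p = 0.00447), where 1091 of all 16757 genes were called lower. Cbx5 was not called when the fit held every non-control probe (adjusted p = 0.0193), and its scanner difference was 0.020 in replicate 1 and -0.63 in replicate 2.

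Trim29, a member without a RING domain that is known from basal and squamous epithelia, had the largest difference among the tested members. It was at 1.77 and 1.48 in EV-50 and at -1.48 and -2.07 in shGR-19 by the value table, a difference of -3.39 ± 0.25 (adjusted p = 0.0061). On the scanner arrays it was at -2.21 and -3.45 in EV-50, at -2.66 on shGR-19 replicate 1 and at -7.66 on shGR-19 replicate 2, where it was not well above background. The probe was therefore tested through EV-50 alone, the line in which it was higher. The scanner difference was -0.45 in replicate 1 and -4.22 in replicate 2, so that it went the same way in both and rested on 1 array for its size. The basal keratin Krt14 was also called lower in the value table (-1.13 ± 0.049, adjusted p = 0.00332, and 0.0148 in the fit of every non-control probe). Its scanner difference was 0.024 in replicate 1 and -1.18 in replicate 2. The other basal markers, Krt5 and Trp63, were not called, at -0.30 ± 0.31 (adjusted p = 0.499) and -0.40 ± 0.068 (adjusted p = 0.0248). The Trim29 probe lies at chr9:43144032-43144092 on the forward strand (mm9). Its first 30 of 60 bases are shown because it is the only TRIM probe that passed both thresholds.
Trim29: tcacatgtcactgggctttgagagagccaa

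Among the other members without a group of their own, 17 of 23 genes were tested, with a median of 0.013 in the value table. Trim11, a ligase of protein quality control, was called lower with both of its probes, and like Trim27 it was named after its values had been seen. Its brightest probe was at 0.25 and 0.24 in EV-50 and at -0.24 and -0.28 in shGR-19 (difference -0.50 ± 0.048, adjusted p = 0.00881). The scanner difference was 0.045 in replicate 1 and -0.52 in replicate 2. Trim7, known as a partner of glycogenin, had the largest decrease after Trim29 in this group, at 0.25 and 0.27 in EV-50 and at -0.25 and -0.51 in shGR-19 (difference -0.64 ± 0.11, adjusted p = 0.0251). The scanner values of this probe were -4.41 and -3.71 in EV-50 and -4.29 and -4.29 in shGR-19. Its second probe was lower in both scanner pairs, with differences of -0.54 and -0.61, and was the only TRIM probe with an unadjusted p below 0.05 there (limma, adjusted p = 1.00). Trim41, a neighbour of Trim7 on chromosome 11 (both within chr11:48620148-48665625, mm9), was higher instead, at -0.16 and -0.19 in EV-50 and 0.17 and 0.16 in shGR-19 (difference 0.34 ± 0.047, adjusted p = 0.0167).

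Trim27, also known as Ret finger protein, gave opposite answers with its 2 probes. The brightest was at 0.071 and 0.15 in EV-50 and at -0.18 and -0.071 in shGR-19 by the value table (difference -0.24 ± 0.068, adjusted p = 0.0728). The second was at -0.23 and -0.25 in EV-50 and at 0.24 and 0.23 in shGR-19 and was called higher (difference 0.48 ± 0.046, adjusted p = 0.00888). Its scanner values were 0.87 and -0.43 in EV-50 and 0.90 and -0.11 in shGR-19, while those of the brightest were 2.29 and 2.41 and then 2.34 and 2.26. The second probe was thus, in the scanner files, lower in replicate 2 than in replicate 1 of both lines, and the brightest one was not. The brightest probe spans 1276 bases of the genome (chr13:21281831-21283106, mm9), which is more than its own 60 bases, and the second lies at chr13:21273430-21273489. Their first 30 of 60 bases show that they read different sequence.
Trim27, brightest probe: agttcacagaaaagatgcagtcagatatgg
Trim27, second probe: tatatatttgtttaagtgtgagttcatcca

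All 3 members with NHL repeats were higher in shGR-19 by the value table (median 0.21), and 1 was called higher. Of all 16757 genes 8745 were higher, 1024 of them called. Between the scanner arrays labelled replicate 1, 2 of the 3 were lower in shGR-19, and between those labelled replicate 2 none was. Trim2, a ligase known from neurons, was at -0.26 and -0.26 in EV-50 and at 0.26 and 0.29 in shGR-19 (difference 0.53 ± 0.047, adjusted p = 0.00803). A second probe gave 0.53 ± 0.068 (adjusted p = 0.0144). The scanner files had Trim2 at 0.28 and 0.54 in EV-50 and at 0.11 and 1.17 in shGR-19, a difference of -0.16 in replicate 1 and of 0.62 in replicate 2. Trim3 and Trim32, of the same subfamily, had differences of 0.21 ± 0.062 (adjusted p = 0.0775) and 0.15 ± 0.051 (adjusted p = 0.106).

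**Figure D3:**
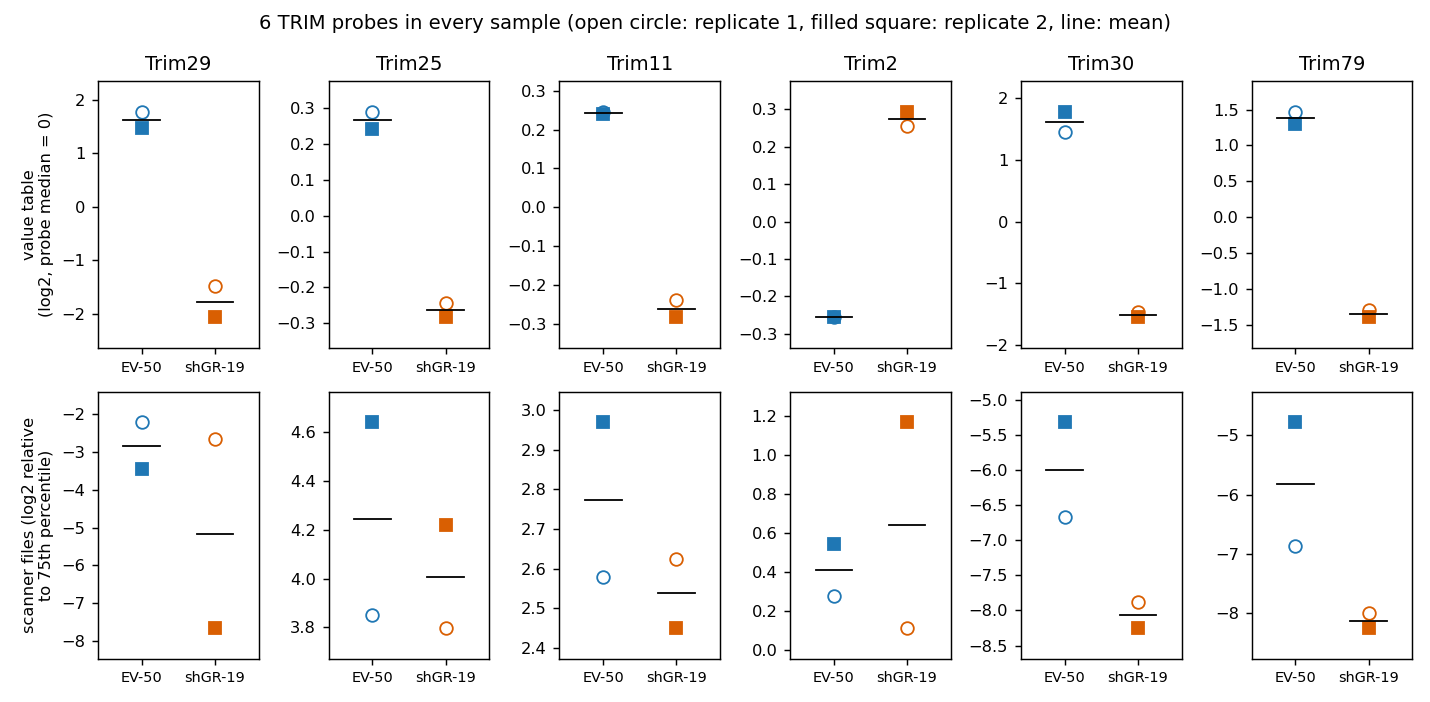
Values of 6 TRIM probes in every sample, in the value table (top, log2 with the probe's median at 0) and in the scanner files (bottom, log2 with each array's 75th percentile at 0), with a line at the mean of the 2 samples of each line and a separate y axis in each panel. In the value table the lines separate for all 6 probes. In the scanner files the 2 replicate 1 samples lie closer to each other than the 2 replicate 2 samples, also for all 6.

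Of the 7 members tied to microtubules or muscle, 6 were tested and 0 were called by limma in either source. Trim46, which organizes microtubules in axons, had a difference of -0.090 ± 0.099 (adjusted p = 0.531). The difference of Trim54, a muscle RING finger protein, was 0.057 ± 0.069 (adjusted p = 0.567). Trim9, Trim36, Trim55 and Trim67 passed the background filter through shGR-19 alone and are not given one by one. Over the 6 tested members the differences in the value table ranged from -0.58 to 0.42. Of the 4 members with a membrane anchor, an Arf domain or a MATH domain, 0 were called as well. Trim23, which carries an Arf GTPase domain, was at 0.054 and 0.049 in EV-50 and at -0.27 and -0.049 in shGR-19 (difference -0.21 ± 0.095, adjusted p = 0.172). Trim59, which is anchored in membranes, had a difference of 0.23 ± 0.075 (adjusted p = 0.0960).

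Among the members without a tested probe, Trim5, Trim15, Trim31, Trim50, Trim61 and Trim65 were well above background on no array. Trim63, a muscle ubiquitin ligase, had a probe that was well above background on the array labelled EV-50 replicate 1 alone, at -3.10, against -5.82 on EV-50 replicate 2 and -5.92 and -6.54 on the shGR-19 arrays. The value table had 0.16 and -0.080 for EV-50 and -0.21 and 0.080 for shGR-19, where the lines overlap. Trim52 and the TIF1 member Trim66 each had a probe with the same pattern, at -4.00 and -3.78 on EV-50 replicate 1 and at or below -7.71 and -7.78 on the other arrays. These high values rest on 1 array, and their columns in the value table lay between -0.59 and 0.22 for Trim52 and between -0.13 and 0.18 for Trim66.

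The relation between the sources was the same for the family as a whole. For the 57 TRIM probes that were well above background everywhere, differences in the value table correlated at 0.756 with those of the replicate 2 scanner pair and at -0.030 with those of the replicate 1 scanner pair. The sign was the same for 48 and for 28 of the 57 probes. Over all 21173 such probes of the array the correlations were 0.911 and 0.043. Probes of 1 sample share an array and are not independent, and the value table carries the labels of the same samples.

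**Figure D4:**
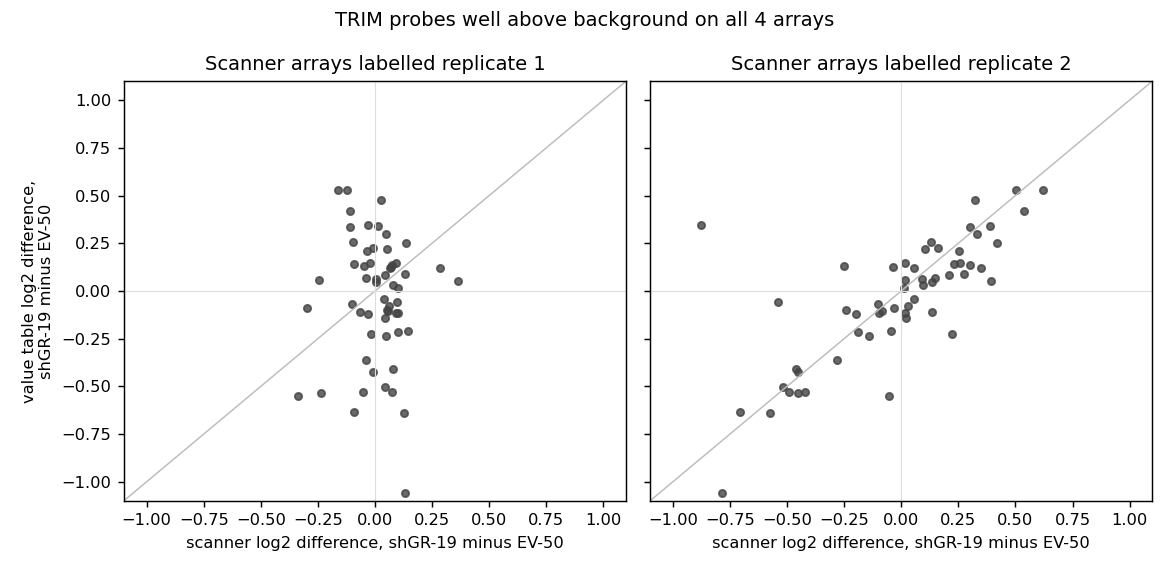
Log2 difference, shGR-19 minus EV-50, by the value table (y axis) against that between the scanner arrays labelled replicate 1 (left) and replicate 2 (right), for the 57 TRIM probes well above background on all 4 arrays, with the line of equality. On the left the points form a narrow upright band around 0, and on the right most lie near the line.

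Among 4 TRIM proteins whose genes carry other symbols (Pml, Mid1, Mid2 and Mefv), 1 was called lower in the value table (1091 of all 16757 genes) and 0 higher, with a median of -0.53. This was Pml, the organizer of PML nuclear bodies and an interferon-induced gene, with values of 0.27 and 0.26 in EV-50 and of -0.31 and -0.26 in shGR-19 (difference -0.54 ± 0.050, adjusted p = 0.00823), and it was not called when the fit held every non-control probe (adjusted p = 0.0307). The scanner difference was 0.023 in replicate 1 and -0.50 in replicate 2. Mid2 had a difference of -0.52 ± 0.086 (adjusted p = 0.0230). Mid1, the microtubule-bound ligase, had a difference of 0.039 ± 0.065 (adjusted p = 0.678).

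Of 20 genes of interferon signalling and its targets, 17 were tested, of which 9 were called lower and 1 higher by the value table, with a median of -0.82. Over all genes tested, 1091 of 16757 were called lower and 1024 higher. The 1 higher was Ifnar1, a subunit of the interferon receptor (0.84 ± 0.056, adjusted p = 0.00534). Among those lower were 2 transcription factors that induce interferon-stimulated genes, Stat2 at -1.04 ± 0.076 (adjusted p = 0.00596) and Irf9 at -1.66 ± 0.071 (adjusted p = 0.00331). None of Ifnar1, Stat2 and Irf9 was called when the fit held every non-control probe (adjusted p of 0.0215, 0.0225 and 0.0146). Irf7 was still called lower in that fit (-3.80, adjusted p = 0.0089), with scanner differences of -0.27 in replicate 1 and -3.78 in replicate 2. Oas2 had no tested probe. One of its probes was called lower in that fit (-5.99, adjusted p = 0.0089) but was well above background on 1 array alone. By limma 0 of the 17 were called in the scanner files, and the median was -0.13 between the arrays labelled replicate 1 and -0.81 between those labelled replicate 2. Differences of the interferon-inducible TRIM genes ranged from -1.06 to 0.25.

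Where a gene had several tested probes, they often disagreed in sign. This was so for 9 of 23 such genes, namely Trim13, Trim24, Trim27, Trim34, Trim35, Trim37, Trim39, Trim41 and Trim44, and for Trim2, Trim25 and Trim27 the probes differed in their call. Of these 9 genes, Trim27 is the only one with a called probe.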

How the data were processed

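RNA of EV-50 and shGR-19 cells (300 ng per array, in duplicate) was measured on one-colour Agilent arrays. The authors deposited spot intensity values with background subtracted by Agilent Feature Extraction 10.5.1.1 in its one-colour default settings, and GeneSpring log2 values, where every probe has its median over the samples at 0. The scale between arrays before centring is not given in the sources used here.

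Scanner intensities were turned to log2 and each array's 75th percentile was subtracted. Control spots and outlier-flagged spots (74 to 139 of 43379 per array) were dropped, and replicate spots averaged. No spot was saturated, and 23290 to 27358 spots per array were well above background. Kept were 24439 probes for which both arrays of EV-50, or both of shGR-19, were well above background, and both sources were fitted over them with limma 3.58.1 in R 4.3.3 (lmFit and eBayes, Benjamini-Hochberg adjustment). A gene was called at an adjusted p below 0.01, and a count of changed probes also needed more than a 2-fold difference where stated, after the study's methods, which name no adjustment. An exact permutation of 2 against 2 samples cannot give a p below 0.333 and was not used. Precision is limited by the number of arrays. The fit was tested on simulated data.

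The members, role groups and gene lists were chosen with earlier results of these data known. Named with values were the called genes over 2-fold, all tested interferon-inducible and TIF1 members, and the largest increase and decrease in each other group among probes detected on every array. The rule takes in 1 more gene, which is not reported here. Probe coordinates are of mm9, from the file headers, without exon annotation, and upstream windows are RefSeq's of GRCm38.p6. The alternatives were other background corrections, scalings and filters, a replicate block, leaving out each array, a plain equal-variance test, another threshold, probes averaged per gene and, added after the data were seen, each replicate number alone. The study's other assays were not analysed here.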

Additional observations from a re-analysis of the deposited data

How the results depend on the processing

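In the scanner files 0 TRIM probes were called by limma under every alternative that was run, and the unadjusted count of probes with p below 0.05 was 1. By the value table, a single TRIM probe (Trim29, count 1) was called lower with more than a 2-fold difference. This count was 0 with all non-control probes kept, 0 with probes well above background on all 4 arrays alone, 0 with the replicate block, 0 with the adjusted plain equal-variance test and 0 with any 1 column left out. It was 2 with an intensity trend and robust prior, and 2 at an adjusted p below 0.05. The median over the TRIM genes in the value table (-0.090) ranged from -0.12 to 0.015 with 1 column left out. It was 0.0065 with probes averaged per gene and 0.0044 in the replicate 2 columns alone. The median of the interferon-inducible members (-0.48) ranged from -0.51 to -0.43 with 1 column left out, was -0.40 with probes averaged per gene, and was -0.52 and -0.43 in the replicate 1 and the replicate 2 columns alone. In the scanner files this median (-0.21) ranged from -0.85 to 0.47 with 1 array left out. The cause was not tested.

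No single TRIM gene was called in the scanner files, and the direction of many turned there. With 1 array left out, the ranges of the log2 difference over the 4 fits were Trim26 from -0.18 to 0.34, Trim56 from -0.82 to 0.85, Trim46 from -0.34 to 0.0091, Trim54 from -0.56 to 0.33, Trim6 from -0.99 to 0.33, Trim12 from -1.14 to 0.68, Trim21 from -0.98 to 0.60, Trim25 from -0.63 to 0.16, Trim34 from -1.25 to 0.86, Trim24 from -0.21 to 0.20, Trim23 from -0.18 to 0.28, Trim27 from -0.10 to 0.0094, Trim7 from -0.58 to 0.13, Trim29 from -4.84 to 0.17, Trim33 from -0.25 to 0.017, Trim2 from -0.30 to 0.76 and Trim59 from -0.053 to 0.21 for the genes that turned. The arrays labelled replicate 1 alone gave the opposite direction for Trim6 at 0.13, Trim21 at 0.079, Trim56 at -0.10, Trim24 at 0.091, Trim2 at -0.16, Trim59 at -0.0090, Trim11 at 0.045, Trim27 at 0.048 and Trim7 at 0.13, and those labelled replicate 2 alone for Trim54 at 0.017 and Trim23 at -0.047. Averaging probes per gene turned Trim27 at 0.063. In the value table, Trim54 ranged from -0.012 to 0.13 with 1 column left out and was -0.020 in the replicate 1 columns, and averaging probes per gene turned Trim24 at 0.0065 and Trim27 at 0.12. None of these genes was called in the source in which it turned, except that Trim27 has a second probe that was called. The labels pair no samples by number. The deviations of same-numbered samples correlated at 0.574 in the scanner files and at 0.056 in the value table, and the replicate block left 0 TRIM probes called in either source.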
